A study of Mus musculus with 9 samples.

Results

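The endothelial and blood-brain barrier genes followed here were 10 of the 14351 genes measured in the mouse hypothalamus: Cldn5, Ocln, Esam, Cdh5 and Pecam1 at cell contacts, the receptors Flt1, Kdr and Tek, and the transporters Slc2a1 and Abcb1a. They were chosen by symbol, with no measured value in the rule, and all 10 were found and passed the authors' filter on low values. RNA was sequenced from 5 mice with a whole body deletion of Clic1 (KO, replicates 2, 4, 6, 8 and 10) and 4 WT littermates (replicates 1, 3, 9 and 11), 1 library per mouse. The mice were male and fed normal chow, and their age at collection was not given in the sources used here. The strain label reads C57b/6J and one protocol label names adipose tissue, but by the study's methods the mice were of CD-1 background and the tissue was hypothalamus. The library of replicate 10 is called KO by its description and its column but WT by its title and treatment label. It is counted as KO here, and its Clic1 level, given below, lay with those of the other KO libraries. The main results are also given without it.

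None of the 10 genes differed between KO and WT mice after adjustment over all genes. The log2 fold changes of KO against WT ran from -0.14 (Esam) to 0.29 (Abcb1a). Above 0 were 8 of 10, against 50.4% of all genes, and the signs of the 10 are not independent of one another. The smallest unadjusted p over all libraries were those of Abcb1a, Flt1 and Pecam1, and without replicate 10 those of Flt1, Cdh5 and Abcb1a, each with a higher mean in KO mice.

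The endothelium of brain vessels forms the blood-brain barrier. Claudin 5 and occludin are tight junction proteins that seal the space between neighbouring cells, VE-cadherin (Cdh5) forms the adherens junction, and PECAM-1 and ESAM are adhesion molecules of endothelial contacts. VEGF receptors 1 and 2 (Flt1 and Kdr) and the angiopoietin receptor Tie2 (Tek) carry signals for vessel growth and stability. The glucose transporter GLUT1 (Slc2a1) supplies the brain with glucose, and P-glycoprotein (Abcb1a) pumps lipophilic compounds back to the blood. CLIC1 and CLIC4 proteins are both known in endothelial cells. In the median eminence of the hypothalamus, capillaries are fenestrated and lack a tight barrier, so a sample of this tissue can hold both kinds of vessel.

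The promoter windows of Cldn5, Flt1 and Kdr are shown because these genes mark the barrier and the paired VEGF receptors, and they give the genomic context of the transcripts counted. Each is the 250 bases before the RefSeq start site on GRCm38.p6, read 5′ to 3′ on the gene's strand. Capitals mark 4 motifs, found on either strand. The letters AGGAAG hold the core of sites for ETS factors, and the same core is searched for as CGGAAG. A GC box was searched for as GGGCGG, and a TATA box by the letters TATAAA. The windows lie at chr16:18776597-18776846 on the plus strand for Cldn5, chr5:147726012-147726261 on the minus strand for Flt1 and chr5:75978456-75978705 on the minus strand for Kdr.
Cldn5: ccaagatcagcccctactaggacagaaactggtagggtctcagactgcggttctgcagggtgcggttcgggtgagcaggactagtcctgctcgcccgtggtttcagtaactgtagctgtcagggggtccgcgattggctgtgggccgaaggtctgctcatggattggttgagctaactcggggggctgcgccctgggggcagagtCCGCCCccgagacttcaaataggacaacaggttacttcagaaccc
Flt1: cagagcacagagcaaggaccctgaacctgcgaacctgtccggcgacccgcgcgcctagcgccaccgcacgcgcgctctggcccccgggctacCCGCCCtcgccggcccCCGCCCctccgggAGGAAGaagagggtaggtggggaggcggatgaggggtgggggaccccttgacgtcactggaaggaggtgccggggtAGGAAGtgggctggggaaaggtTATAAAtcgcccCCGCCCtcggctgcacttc
Kdr: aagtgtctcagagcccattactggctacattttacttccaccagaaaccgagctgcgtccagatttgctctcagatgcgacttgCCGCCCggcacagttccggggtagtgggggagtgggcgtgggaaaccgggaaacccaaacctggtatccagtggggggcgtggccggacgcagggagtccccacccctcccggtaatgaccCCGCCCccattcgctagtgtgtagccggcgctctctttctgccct
Of the 10 genes, 7 had a window in the RefSeq table, with 8 windows in all because Ocln has a pair of start sites. Pecam1, Cdh5 and Esam had none. The windows of Ocln overlap each other. The Abcb1a window, at chr5:8566841-8567090, lies far before the start of the Abcb1a gene given below. GGGCGG was found in 6 of the 8 windows, those of Cldn5, Flt1, Kdr, Ocln and Slc2a1, and in 32.7% of all 32851 windows. The median share of G and C was 62.8% in the 8 windows and 52.4% in all windows. AGGAAG was found in 2 of 8 (Abcb1a and Flt1) against 29.5% of all windows, TATAAA in 1 of 8 (Flt1) against 12.4%, and CGGAAG in 0 of 8 against 13.6%. Flt1 alone of the 3 printed windows held both AGGAAG and TATAAA. These matches describe the letters of the windows only.

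The Clic1 transcript itself was at 0.733 to 1.93 CPM (read counts scaled to library size by the authors) among 5 KO libraries and at 3.58 to 5.52 CPM among 4 WT libraries, without overlap. In KO replicate 10 Clic1 was at 1.43 CPM, within the range of the other KO libraries and below every WT library. Clic4, a relative of Clic1, was at 129 ± 9.91 CPM across 5 KO mice and 127 ± 2.37 CPM across 4 WT mice (mean ± SD). The steps between low values put the totals on the genes kept at 5.45 to 20.8 M reads per library, the largest in KO replicate 10, and these totals are approximate. KO replicate 10 was the highest or the lowest of the 9 libraries in 58.5% of all genes, against 11.4% to 21.8% for each other library. Hypothalamic peptide genes (8 of 8 listed) were present in the table and adipose genes (0 of 6 listed, among them Adipoq and Plin1) had no row in it. In bulk RNA, fewer endothelial cells and less RNA per endothelial cell cannot be told apart.

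Cldn5 had the highest coefficient of variation of the 10 genes among KO mice, 30.6%, and without replicate 10 it was 15.8%, below those of Ocln and Pecam1. Cldn5 (ENSMUSG00000041378, chr16:18776847-18778262, plus strand of GRCm38) was at 15.3, 18.1, 13.9, 12.5 and 25.7 CPM in KO replicates 2, 4, 6, 8 and 10, and at 15.3, 13.7, 16.3 and 11.7 CPM in WT replicates 1, 3, 9 and 11. The groups overlapped, and KO replicate 10 stood far above every other library. Levels averaged 17.1 ± 5.23 CPM across 5 KO mice and 14.2 ± 2.0 CPM across 4 WT mice (mean ± SD). KO against WT, the log2 fold change was 0.23 with a 95% interval of -0.19 to 0.64 (adjusted p = 0.862, limma). Without replicate 10 it was 0.07, with an interval of -0.22 to 0.35.

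Ocln and Esam, both at contacts between cells, were the least abundant of the 10 genes in CPM. Ocln (ENSMUSG00000021638, chr13:100496507-100552718, minus strand) was at 7.34, 8.04, 11.2, 9.38 and 8.31 CPM in KO replicates 2, 4, 6, 8 and 10 and at 9.13, 7.25, 8.2 and 9.37 CPM in the WT libraries in the order above. This gave a log2 fold change of 0.05 (interval -0.27 to 0.37, adjusted p = 0.96, limma). The ranges overlapped almost wholly, with KO replicate 6 the highest library. Esam (ENSMUSG00000001946, chr9:37528078-37538319, plus strand) was at 6.44, 6.06, 6.23, 5.94 and 5.49 CPM in KO and 6.15, 6.22, 7.6 and 6.75 CPM in WT libraries. It had the lowest log2 fold change of the 10, -0.14 (interval -0.42 to 0.14, adjusted p = 0.87, limma). Each KO library was below the WT mean, and 3 of them were below every WT library.

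Cdh5, the cadherin of endothelial adherens junctions, was high in some KO libraries and low in others. Cdh5 (ENSMUSG00000031871, chr8:104101625-104144511, plus strand) was at 21.8, 20.8, 15.4, 22.2 and 13.6 CPM in KO replicates 2, 4, 6, 8 and 10, and at 14.9, 17.8, 16.8 and 15.3 CPM in the WT libraries. KO replicates 2, 4 and 8 were above every WT library, whereas KO replicate 10 was below all of them. On the log2 scale the fold change was 0.19 over all libraries (interval -0.15 to 0.52, adjusted p = 0.862, limma). Without replicate 10 it was 0.29 (interval 0.04 to 0.55), with an unadjusted p of 0.0283 and an adjusted p of 0.392 in limma.

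Markers of mural cells, which surround the endothelium, and of fibroblasts were read beside Cdh5. The 15 mural cell genes measured, of 16 listed, summed to 416, 418, 345, 445 and 325 CPM in KO replicates 2, 4, 6, 8 and 10, and to between 333 and 362 CPM in WT mice. The 6 fibroblast genes summed to 88.6, 107, 46.7, 147 and 64 CPM in the same KO libraries and to between 50 and 91 CPM in WT mice. Of the markers measured, 0 were at 0 CPM in any library. The 3 KO libraries with the highest Cdh5 were those with the highest mural sums. Their part in the result was not tested.

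Pecam1 (ENSMUSG00000020717, chr11:106654217-106750628, minus strand), which encodes an adhesion molecule shared by endothelium, platelets and some leukocytes, was at 20.9, 21.6, 18.1, 26.6 and 26.2 CPM in KO and 20.2, 16.9, 21.1 and 20.8 CPM in WT libraries. KO replicates 8 and 10 were the highest and WT replicate 3 the lowest, and the groups overlapped. Levels averaged 22.7 ± 3.62 CPM across 5 KO mice and 19.7 ± 1.94 CPM across 4 WT mice (mean ± SD). KO against WT, the log2 fold change was 0.19 (interval -0.09 to 0.47, adjusted p = 0.844, limma) and 0.13 without replicate 10.

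**Figure D1:**
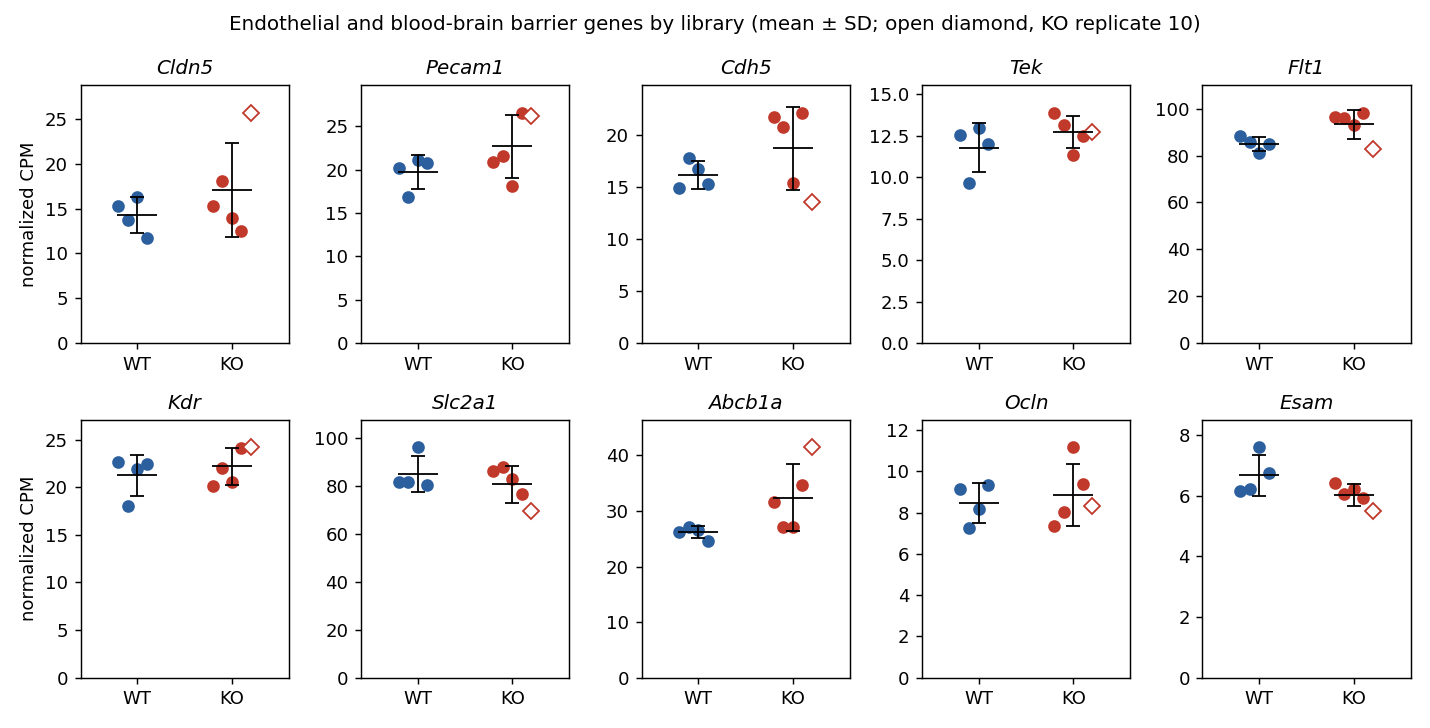
Normalized CPM of the 10 genes in each library (blue, WT, n = 4; red, KO, n = 5; open diamond, KO replicate 10), with the mean and SD of each group in black and each axis starting at 0. The groups overlap for every gene, and KO replicate 10 is the highest library for Cldn5, Kdr and Abcb1a and the lowest for Cdh5, Slc2a1 and Esam.

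Among the receptors, Flt1 had the tightest values. Flt1 (ENSMUSG00000029648, chr5:147561604-147726011, minus strand), whose promoter window is printed above, encodes VEGF receptor 1, which also exists as a soluble form that binds VEGF. It was at 96.5, 96.1, 92.9, 98.4 and 82.8 CPM in KO replicates 2, 4, 6, 8 and 10, and at 88.3, 85.8, 81.3 and 84.9 CPM in the WT libraries. Above every WT library lay 4 of 5 KO libraries, and KO replicate 10 lay inside the WT range. Levels averaged 93.3 ± 6.18 CPM across 5 KO mice and 85.1 ± 2.89 CPM across 4 WT mice (mean ± SD). This gave a log2 fold change of 0.13 (interval -0.02 to 0.28, adjusted p = 0.79, limma), and the two-sided exact permutation test gave p = 0.0635.

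Without replicate 10, Flt1 was 1.13-fold higher in KO mice and the groups did not overlap. On the log2 scale the fold change was then 0.17 (interval 0.07 to 0.28), with an unadjusted p of 0.00345 and an adjusted p of 0.184 in limma. The exact permutation test gave p = 0.0286, the smallest that 4 against 4 libraries allow. In this comparison 6.06% of all genes did not overlap between the groups, and of the 10 genes 1, Flt1, did not. Values per gene do not separate the membrane and the soluble form.

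Kdr (ENSMUSG00000062960, chr5:75932827-75978458, minus strand) encodes VEGF receptor 2, the main signalling receptor for VEGF-A in endothelium. It was at 20.1, 22, 20.5, 24.1 and 24.2 CPM in KO and 22.6, 18, 21.9 and 22.5 CPM in WT libraries. WT replicate 3 was the lowest of all, and the other WT libraries lay within the KO range. KO against WT, the log2 fold change was 0.06 (interval -0.16 to 0.29, adjusted p = 0.925, limma) and 0.03 without replicate 10.

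Tek (ENSMUSG00000006386, chr4:94739289-94874976, plus strand), the receptor for angiopoietins, was at 13.9, 13.2, 11.4, 12.5 and 12.7 CPM in KO and 12.6, 9.64, 13 and 12 CPM in WT libraries. WT replicate 3 was again the lowest and the remaining libraries lay close together. This gave a log2 fold change of 0.12 both with replicate 10 (interval -0.14 to 0.37, adjusted p = 0.88, limma) and without it. Of the 10 genes, Tek was among the 4 whose lowest value was in WT replicate 3, with Pecam1, Kdr and Ocln.

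Slc2a1 (ENSMUSG00000028645, chr4:119108711-119137983, plus strand), the glucose transporter of the barrier, is also made by glia. It was at 86.2, 88.2, 82.8, 76.8 and 69.6 CPM in KO and 81.8, 81.5, 96.2 and 80.4 CPM in WT libraries. KO replicate 10 was the lowest and WT replicate 9 the highest, and the other libraries mixed. On the log2 scale the fold change was -0.08 (interval -0.26 to 0.11, adjusted p = 0.888, limma) and -0.02 (interval -0.17 to 0.12) without replicate 10. In the annotation the antisense genes Gm12867 and Gm12868 overlap Slc2a1, Gm29682 overlaps Cdh5 and Gm42686 overlaps Abcb1a on the opposite strand. None of these had a row in the table, and reads from both strands cannot be told apart where counting did not use strand.

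Abcb1a (ENSMUSG00000040584, chr5:8660077-8748575, plus strand) had the highest log2 fold change of the 10 genes. It was at 31.7, 27.1, 27.1, 34.6 and 41.5 CPM in KO replicates 2, 4, 6, 8 and 10, and at 26.2, 27.2, 26.6 and 24.7 CPM in the WT libraries. The WT libraries were close together, KO replicates 2, 8 and 10 lay above all of them, and KO replicates 4 and 6 lay just below the highest. Levels averaged 32.4 ± 6.00 CPM across 5 KO mice and 26.2 ± 1.07 CPM across 4 WT mice (mean ± SD). KO against WT, the log2 fold change was 0.29 (standard error 0.12, interval 0.02 to 0.56), with an unadjusted p of 0.0364 and an adjusted p of 0.743 in limma. The exact permutation test gave p = 0.0476. Without replicate 10 the log2 fold change was 0.20 (unadjusted p = 0.048, adjusted p = 0.467, limma), and the exact permutation test gave p = 0.0857. As each library was left out in turn, the unadjusted limma p of Abcb1a ranged from 0.0165 to 0.0887 and was under 0.05 in 3 of 9 fits, those without KO replicates 4, 6 or 10. With replicate 10 as WT it was 0.677.

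Mice carry a second P-glycoprotein gene, Abcb1b, next to Abcb1a on chromosome 5, and estimated reads can be divided between the copies. Their longest coding sequences in GENCODE match at 88.2% of 3816 aligned bases, with an unbroken identical run of up to 338 bases and 13 such runs of at least 50. Bases 38 to 97 of each coding sequence are shown because they are nearly identical, with the bases that differ in capitals.
Abcb1a: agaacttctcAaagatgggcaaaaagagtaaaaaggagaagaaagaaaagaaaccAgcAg
Abcb1b: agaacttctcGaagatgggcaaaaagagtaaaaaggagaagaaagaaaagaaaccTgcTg
Abcb1b ranged from 3.48 to 5.44 CPM in KO mice and from 3.51 to 3.87 CPM in WT mice, far below Abcb1a. Summed, the pair was at 35.2, 31.8, 32.5, 38.8 and 46.4 CPM in KO and 30.1, 30.7, 30.1 and 28.4 CPM in WT libraries, so the sums of the groups did not overlap. The log2 fold change of the sum was 0.29 (unadjusted p = 0.0198, adjusted p = 0.667, limma), and the exact permutation test gave p = 0.0159, the smallest that 5 against 4 libraries allow. Without replicate 10 the sums still did not overlap (exact permutation test, p = 0.0286). Over all genes, 3.41% did not overlap with replicate 10 and 6.06% without it.

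Across the 10 genes, 0 passed an adjusted p of 0.05 in limma, against 0.286% of all genes. An unadjusted p under 0.05 was found for 1, Abcb1a, against 6.5% of all genes (3.44% higher and 3.07% lower in KO mice). No gene of the 10 had groups without overlap, against 3.41% of all genes. Without replicate 10, again 0 passed after adjustment (0.606% of all genes). Flt1, Cdh5 and Abcb1a, 3 of 10, then had an unadjusted p under 0.05 and were higher in KO mice, against 5.57% of all genes higher with such a p and 10.5% in both directions. The median log2 fold change was 0.12 over the 10 genes and 0.00089 over all genes, and without replicate 10 it was 0.09 and -0.0020. The KO mean was above the WT mean, on the log2 scale, in 8 of 10 genes both with replicate 10 and without it, and in 50.4% and 49.3% of all genes. The 10 genes come from the same libraries and largely the same cells, so their signs are not independent of one another.

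**Figure D2:**
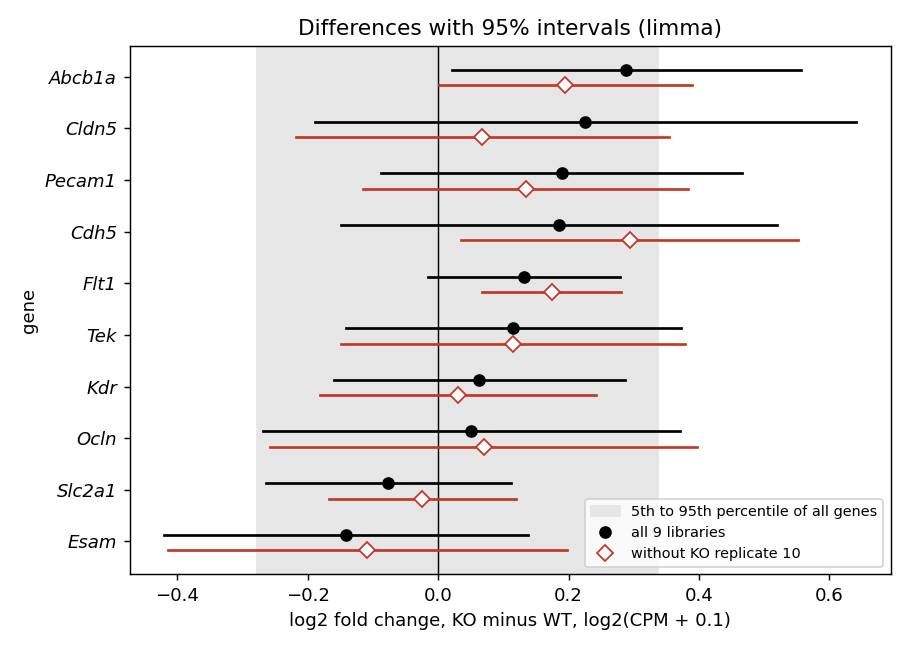
Log2 fold change of KO against WT on the log2(CPM + 0.1) scale for each gene, with 95% intervals from limma, over all 9 libraries (black) and without KO replicate 10 (open red diamonds). The grey band spans the 5th to 95th percentile of all 14351 genes, -0.28 to 0.34. All 10 points lie inside it, and the interval lies above 0 for Abcb1a with all libraries and for Flt1, Cdh5 and Abcb1a without replicate 10.

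The intervals give the range of differences these 9 mice allowed. For Flt1 the interval over all libraries allowed a KO level from 0.989 to 1.21 times that of WT, and for Slc2a1 from 0.832 to 1.08 times. For Cldn5 it reached from 0.877 to 1.56 times.

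The 10 genes differed in which libraries were high or low. KO replicate 10 lay outside the other 8 libraries in 6 of 10 genes, above them for Cldn5, Kdr and Abcb1a and below them for Cdh5, Slc2a1 and Esam, near the 58.5% of all genes. Against the mean of the 9 libraries, it deviated by 0.73 for Cldn5, 0.50 for Abcb1a and -0.35 for Cdh5 on the log2 scale. KO replicate 8 was the highest for Pecam1, Cdh5 and Flt1. WT replicate 3 was the lowest for 4 genes, and WT replicate 9 was the highest for Slc2a1 and Esam and the lowest for Flt1. Summed over the 10 genes, the libraries totalled 299 to 323 CPM for KO mice and 284 to 309 CPM for WT mice, and the groups overlapped.

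**Figure D3:**
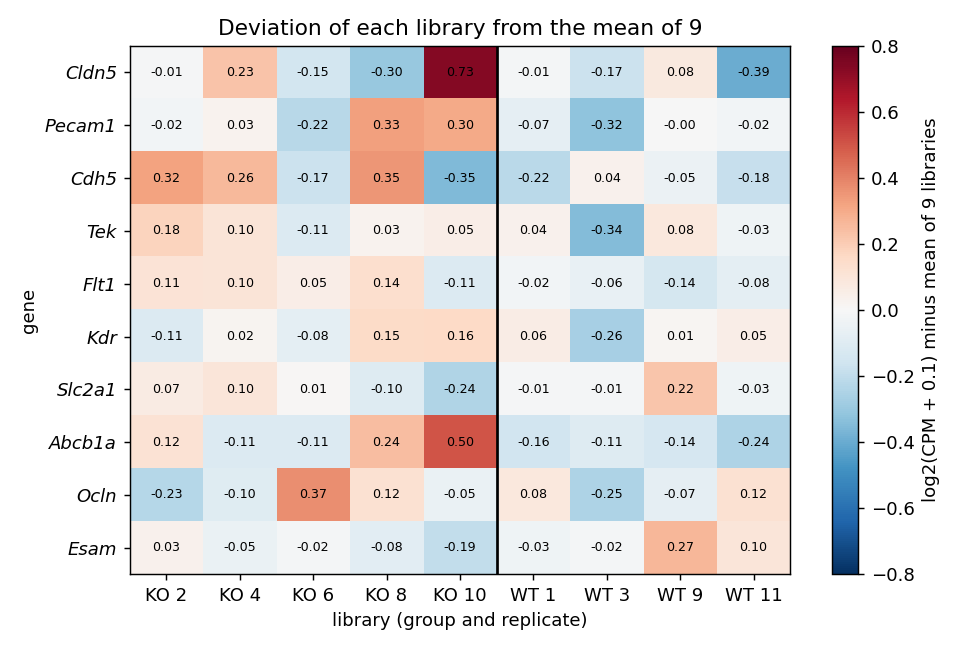
Deviation of each library (columns, KO then WT) from the mean of the 9 libraries for each gene (rows), in log2(CPM + 0.1), red above and blue below. The highest deviations are those of KO replicate 10 for Cldn5 (0.73) and Abcb1a (0.50), and its Cdh5 value (-0.35) is among the lowest.

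Within groups the coefficient of variation of the 10 genes had a median of 9.93% in WT mice (3.4% for Flt1 to 14.1% for Cldn5) and 12.7% in KO mice (5.9% for Esam to 30.6% for Cldn5). Without replicate 10 the KO median was 10.4%, with a range from 2.38% for Flt1 to 18.8% for Ocln. The same medians over 12072 genes averaging 5 CPM or more were 7.51% in WT, 12.2% in KO and 7.03% in KO mice without replicate 10.

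Levels of different genes were compared per kb of the longest coding transcript in GENCODE. In WT mice Slc2a1 was the highest, at 26.1 ± 2.30 CPM per kb (SD, n = 4), followed by Flt1 at 12.3 ± 0.419 and Cldn5 at 10.1 ± 1.42 CPM per kb. Pecam1 at 5.74 and Abcb1a at 5.24 CPM per kb overlapped each other and lay below Cldn5. Cdh5 (4.06), Kdr (3.59) and Esam (3.58) formed an overlapping run, and Tek (2.53) and Ocln (2.09 CPM per kb) overlapped at the low end. Slc2a1 and Flt1, Flt1 and Cldn5, Cldn5 and Pecam1, Abcb1a and Cdh5, and Esam and Tek were neighbours whose WT ranges did not overlap. With all annotated exons joined as the length, Flt1 (6.3) came below Cldn5 (10.1), and Pecam1 (3.17 CPM per kb) came below Abcb1a and Cdh5, and Tek above Kdr and Esam. Slc2a1 stayed first and Ocln last. Which isoforms were made was not given by the values, so this order is approximate.

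**Figure D4:**
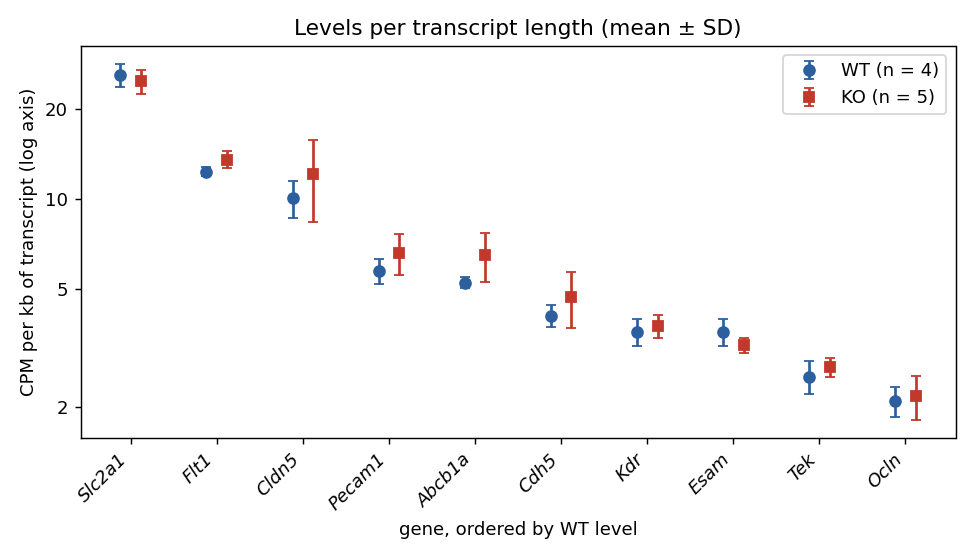
CPM per kb of the longest coding transcript (log axis) of each gene in WT (blue circles, n = 4) and KO mice (red squares, n = 5), as mean and SD, ordered by the WT level. The order runs from Slc2a1 at 26.1 to Ocln at 2.09 CPM per kb in WT mice, and the SD bars of KO and WT overlap for every gene.

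Other genes of the vessel wall were followed in lists chosen by their known roles. Of 14 further barrier transport genes, 0 passed after adjustment, and the median log2 fold change was 0.08. Slco1a4, an organic anion transporter of brain capillaries, was at 39.7 ± 5.76 CPM across 5 KO mice and 30.7 ± 1.33 CPM across 4 WT mice (mean ± SD), with a log2 fold change of 0.36 (unadjusted p = 0.0055, adjusted p = 0.462, limma). Abcg2, an efflux pump with a role like that of P-glycoprotein, had a log2 fold change of 0.23, the amino acid transporter gene Slc38a5 one of 0.51 and the abundant Bsg one of -0.03 (adjusted p of 0.803, 0.83 and 0.953, limma). Of 14 junction genes 0 passed, with a median of 0.06. Cldn12 (-0.15), Jup (-0.15), Afdn (0.11) and Ctnnb1 (0.06), which encode a claudin, plakoglobin, afadin and beta-catenin, had adjusted p of 0.825 to 0.88 in limma.

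Of 29 further endothelial lineage genes, 0 passed the threshold with all libraries, and the median log2 fold change was 0.01. Vwf, which encodes von Willebrand factor of larger vessels and platelets, was at 25.6, 26.2, 15.4, 29.2 and 20.6 CPM in KO and 13.3, 12.8, 15.4 and 11.7 CPM in WT libraries. KO replicate 6 lay just below the highest WT library and the other KO libraries above all of them. This gave a log2 fold change of 0.78 (adjusted p = 0.154, limma), and without replicate 10 it was 0.82, with an adjusted p of 0.0313. Robo4 (0.45), Ptprb (0.20) and Ly6a (-0.59) had unadjusted p of 0.0209, 0.0352 and 0.0243 and adjusted p of 0.679, 0.735 and 0.695 in limma. Ptprb encodes a phosphatase that acts on Tie2.

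The VEGF and angiopoietin list held 10 genes, of which 0 passed, with a median of 0.04. Nrp2, a co-receptor for VEGF family ligands, ranged from 161 to 171 CPM in KO and from 143 to 152 CPM in WT mice, without overlap (log2 fold change 0.15, adjusted p = 0.624, limma). The ligand genes Vegfa and Vegfb had log2 fold changes of 0.17 and -0.12 (adjusted p of 0.788 and 0.88, limma). Of 17 genes of Wnt signalling to brain endothelium, 0 passed, with a median of 0.05. Ndp, the gene of the Fzd4 ligand norrin, ranged from 2.28 to 3.43 CPM in KO and from 3.44 to 5.9 CPM in WT mice. Its log2 fold change was -0.60 (adjusted p = 0.554, limma). The Ndp groups barely separated, with 3.427 CPM in KO replicate 4 and 3.444 CPM in WT replicate 11. In these libraries 1 read was worth about 0.132 and 0.138 CPM. Over all genes, 3.41% had groups without overlap. Adgra2 (0.31), Fzd4 (0.15) and Lrp6 (0.03) did not pass. Of 9 genes of permeability and leukocyte adhesion measured, of 11 listed, 0 passed, with a median of 0.09, and Cavin1, a caveola gene, had a log2 fold change of 0.48 (adjusted p = 0.759, limma), Cavin2 one of 0.27 and Vcam1 one of 0.18.

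Mural cells are the pericytes and smooth muscle of vessels. Of 15 mural genes measured, 0 passed with all libraries. Log2 fold changes were above 0 for 14, against 50.4% of all genes, and the median was 0.30. Acta2, the smooth muscle actin, was at 25, 21.4, 10.4, 29.9 and 8.46 CPM in KO and 9.95, 5.6, 8.2 and 8.13 CPM in WT libraries. KO replicate 10 lay inside the WT range and the other KO libraries above it. On the log2 scale the fold change was 1.11 (adjusted p = 0.506, limma), and without replicate 10 it was 1.36 (adjusted p = 0.0207). Myh11 (0.98), of smooth muscle, Des (0.81) and the pericyte gene Rgs5 (-0.11) had adjusted p of 0.544, 0.688 and 0.869 in limma. Rgs5, named for its high mean, had the lowest log2 fold change of the mural list and does not stand for other pericyte genes. Vtn, of the same list, was at 0.30. By an unadjusted p under 0.05 in limma, 4 mural genes were higher in KO mice, 3 endothelial lineage genes were higher and 1 lower, 1 gene each of the transport, VEGF and permeability lists was higher, 1 Wnt gene was lower and 0 junction genes were either, against 3.44% of all genes higher and 3.07% lower. Without replicate 10, 9 of 15 mural genes and 6 of 29 lineage genes were higher by such a p, with 3 transport genes and 2 each of the VEGF, Wnt and permeability lists, 1 lineage and 1 Wnt gene were lower and 0 junction genes were either, against 5.57% of all genes higher and 10.5% in both directions. The medians without replicate 10 were 0.28 for the mural, 0.05 for the lineage, 0.05 for the transport, 0.04 for the junction, 0.02 for the VEGF, 0.06 for the Wnt and 0.16 for the permeability list. Whether Vwf and Acta2 differed more than the 10 genes was not tested. Without KO replicate 6, Vwf (adjusted p = 0.0163) and Myh11 (0.0101) passed in limma and Acta2 did not. Over all alternatives the adjusted p ranged from 0.00356 to 0.553 for Vwf and from 0.00881 to 0.955 for Acta2.

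**Figure D5:**
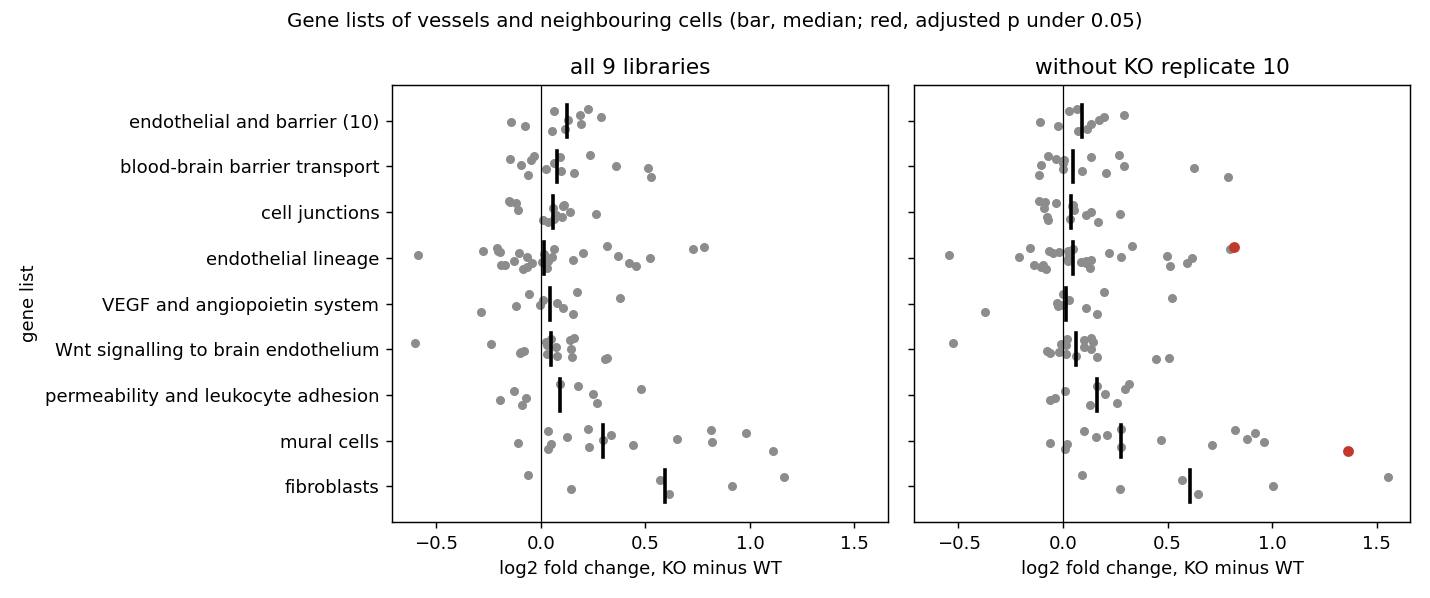
Log2 fold change of KO against WT for each gene of 9 lists, with all libraries (left) and without KO replicate 10 (right). Black bars are list medians and red points have an adjusted p under 0.05 in limma, which are absent on the left and are Vwf and Acta2 on the right.

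Markers of other cells in the tissue were read the same way. Medians of the log2 fold change were 0.59 over 6 fibroblast genes, 0.30 over 5 tanycyte genes, 0.15 over 4 choroid plexus genes of 7 listed, -0.03 over 7 astrocyte genes, -0.09 over 6 neuron genes, -0.12 over 6 oligodendrocyte genes and -0.13 over 8 microglia genes, and 0 genes of these lists passed. At an unadjusted p under 0.05 in limma, 3 fibroblast genes, 1 tanycyte and 1 choroid plexus gene were higher. Lower by that p were 1 oligodendrocyte and 1 neuron gene, and 0 astrocyte or microglia genes were either. Over all genes, 3.44% were higher and 3.07% lower by such a p. Without replicate 10 the median of the neuron genes turned to 0.01, with 3 of 6 above 0 against 0 of 6 with it, and that of the tanycyte genes was 0.20. The other medians were then 0.61 for fibroblast, 0.18 for choroid plexus, -0.06 for astrocyte, -0.12 for oligodendrocyte and -0.09 for microglia genes. By an unadjusted p under 0.05 in limma, 4 fibroblast genes, 1 tanycyte, 1 choroid plexus and 1 astrocyte gene were then higher. Lower were 2 oligodendrocyte, 1 neuron and 1 astrocyte gene, and 0 microglia genes were either. Over all genes, 5.57% were then higher by such a p, and 10.5% had one in both directions. The collagen genes Col1a2 (0.61), Col3a1 (0.91) and Col1a1 (0.57) had the smallest p of the fibroblast list, with adjusted p of 0.688 to 0.735 in limma. Dcn, with the highest mean of that list, had a log2 fold change of -0.06 (adjusted p = 0.981, limma) and 0.09 without replicate 10. The red blood cell list had 1 gene measured of 5 listed, Alas2, an enzyme gene of haem synthesis, which ranged from 9.79 to 13.4 CPM in KO and from 7.58 to 10.3 CPM in WT mice. Its log2 fold change was 0.37 (unadjusted p = 0.0167, adjusted p = 0.648, limma) and 0.31 without replicate 10 (unadjusted p = 0.0338, limma), and its part in the values of the vessel genes was not tested. The platelet list had 1 gene measured of 4 listed, Itga2b, with a log2 fold change of 0.28 (unadjusted p = 0.247, limma). Of the 8 hypothalamic peptide genes (median 0.04) only Avp passed, and of the 4 CLIC genes measured (median 0.03) only Clic1. Summed astrocyte markers, which bear on Slc2a1, spanned 5110 to 5365 CPM in KO mice and 4804 to 5334 CPM in WT mice, and their part in the Slc2a1 values was not tested.

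The genes whose pattern over the 9 libraries was most like the mean standardised pattern of the 10 genes were Igfbp7 (Pearson r = 0.957), Itih2 (0.949), P3h4 (0.937), Cirbp (0.934) and Jcad (0.929). Over the 8 libraries without replicate 10 they were Vtn (0.972), Nbl1 (0.970), Foxc1 (0.970), Igfbp7 (0.969) and Itih2 (0.960). These are the highest values among 12072 genes over few libraries, and are given as a description. Of the 10 genes, Tek (0.881) and Pecam1 (0.766) lay closest to that mean over 9 libraries, whereas Esam (-0.03), Slc2a1 (0.10) and Ocln (0.10) lay farthest from it. The 29 endothelial lineage genes had a median r of 0.378, and genes of at least 5 CPM one of -0.01. Each of the 10 genes is part of that mean, which raises its r, whereas the genes of these medians are not.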

How the data were processed

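Hypothalamic RNA of 9 mice was sequenced, 1 library per mouse. By the submitters' processing notes and the study's methods, the authors trimmed reads with Trimmomatic 0.38, aligned them to GRCm38.p6 with STAR 2.5.1a, estimated reads per gene with RSEM 1.3.0, removed genes of low CPM and deposited a signal of normalized CPM, scaled by TMM factors with edgeR. RSEM divides reads between similar genes. The authors' comparison table (fold changes, p-values) was used only to pair identifiers with symbols. In addition, 1 per-library column could not be matched to any sample and was left out. Of values up to 2.5 CPM, 81.3% to 86.6% per library lay within 0.03 reads of a whole read, so whole reads could not be recovered for nearly all genes.

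Genotype was the single term of a fit by limma 3.58.1 (trend, R 4.3.3) to log2(CPM + 0.1). P-values were adjusted by Benjamini-Hochberg over all 14351 genes, and 0.05 was the threshold. Fold changes on this scale understate changes of low genes. Exact two-sided permutation tests used scipy 1.17.1. P-values set the difference between the groups against the spread between these mice, and limma also drew on the spread of all genes. The fit was tested on simulated counts with the same spread setting for all genes and no outlying library. That test does not cover a library like KO replicate 10. Gene positions came from GENCODE M21 and promoter sequences from RefSeq, both on GRCm38. Coding sequences were aligned with Biopython 1.88.

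The 10 genes and the lists were chosen with earlier results of these data known. The rule for named genes took the 10 genes, Clic1, Clic4, the 3 genes with the smallest unadjusted p and the gene with the highest mean of each list, and the 5 genes (mean of at least 5 CPM) whose pattern was most like the mean of the 10, with and without replicate 10. Marker lists of other cells are given mainly by their medians. Each library was left out in turn. Further alternatives changed the pseudocount, the scaling, the variance model or the threshold, required a mean of at least 5 CPM, weighted samples, counted replicate 10 as WT, ran limma-voom on estimated counts, or summed Abcb1a with Abcb1b.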

Additional observations from a re-analysis of the deposited data

Results flagged for a closer look

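Among the 10 genes, 2 of 20 groups of values held a library far from the others of its group. Over the 10 genes and those that the rule named from the other lists, 9 of 132 groups did. The genes named for their similar pattern and Abcb1b were not checked. Chance flags about 1 in 20 groups. Kdr was at 18 CPM in WT replicate 3, against 21.9 to 22.6 CPM in the other WT libraries. Slc2a1 was at 96.2 CPM in WT replicate 9, against 80.4 to 81.8 CPM in the others. In WT replicate 9, Ly6a was at 14.7 CPM (6.96 to 7.98 in the others) and Vegfb at 68.7 CPM (53 to 55.1 in the others). Vegfa was at 65.7 CPM in WT replicate 11, against 60.8 to 61.5 CPM. Mog was at 28.2 CPM in WT replicate 1, against 40.3 to 42.7 CPM. In KO replicate 10, Bsg was at 375 CPM (318 to 331 in the other KO libraries), Aif1 at 3.41 CPM (1.45 to 1.83) and Avp at 255 CPM (189 to 200).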

How the results depend on the processing

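No paired analysis was run, because KO and WT mice share no replicate numbers to pair them by. Litter was not a term of the fit. The count of 0 of the 10 genes past the threshold held in the 9 fits that each left out a library and in 12 other alternatives, and over 200 refits of single genes the adjusted p in limma ranged from 0.184 to 0.998. Of these 200, 193 kept their direction and 7 changed sign. Refits that changed only the variance model or required a mean of at least 5 CPM could not change a sign, because the log2 fold changes stayed the same. Summing Abcb1a with Abcb1b changed only the log2 fold change of Abcb1a. With replicate 10 as WT the log2 fold change became -0.10 for Cldn5, -0.0075 for Kdr and 0.033 for Slc2a1. With sample weights Slc2a1 was at 0.0013, without KO replicate 6 Ocln was at -0.036, and without WT replicate 3 Kdr was at -0.013 and Ocln at -0.021. As each library was left out, Kdr ranged from -0.013 to 0.098 and Ocln from -0.036 to 0.11. The median over the 10 genes stayed between 0.058 and 0.15. Over all genes the count of 41 became 27 with a mean of at least 5 CPM (12072 genes tested), 135 with sample weights, 5 with replicate 10 as WT, and 18 to 87 as each library was left out, highest without KO replicate 10 (87) and lowest without WT replicates 1 (18), 3 (19), 11 (22) and 9 (24), then KO replicates 8 (25) and 6 (27). Over the other lists, followed in the same alternatives after the data were seen, the count of 2 (Clic1 and Avp) became 1, 5 and 0 under these settings and 1 to 4 as each library was left out, 1 without WT replicate 1, 3 or 9 and 4 without KO replicate 6 or 10. The filter tested fewer genes. The cause of the other changes was not tested. Over all libraries, the standard error of the log2 fold change was largest for Cldn5 (0.190) and Cdh5 (0.153) among the 10 genes. Without replicate 10 it was largest for Ocln (0.154) and Esam (0.143), genes of a few CPM.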
